A study of Mus musculus with 12 samples.

Results

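The mitotic genes described here are 41 mouse genes that act in G2 phase and mitosis, taken from a list of gene names. All 41 were found among the 27179 genes of the table, and all 41 were detected in all 12 libraries. The libraries were whole kidneys of 12 mice, 3 in each of 4 groups, aged 8 to 12 weeks and of a mixed strain background per the labels. Wild-type and FAN1KO mice received either saline or cisplatin, a platinum drug that crosslinks DNA, at 2 mg/kg by intraperitoneal injection each week for 5 weeks. FAN1 is a nuclease of DNA crosslink repair. The FAN1KO mice carried γGT1-Cre and Fan1-/-, and in the study's methods this Cre deletes Fan1 in proximal tubule cells, so the other cells of the kidney keep the gene in both genotypes. The labels name no Cre in the wild-type mice, and each replicate is a different mouse.

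A dividing cell builds up cyclins and mitotic kinases in G2, enters mitosis when the kinase Cdk1 is switched on by its cyclin, attaches its chromosomes to the spindle through kinetochores, and leaves mitosis when the anaphase-promoting complex, a ubiquitin ligase, marks cyclin B and securin for destruction. Most of these genes are transcribed together, late in the cycle, under the DREAM and MuvB complexes and the factors B-Myb and Foxm1, which act through a short promoter element called the cell cycle genes homology region (CHR) and through CCAAT boxes. In an adult kidney few cells divide, and after injury surviving tubule cells can re-enter the cycle. A cell arrested in G2 also holds the RNA of these genes, so the RNA alone does not separate division from arrest.

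The start of transcription of 31 of the 41 genes is covered by the RefSeq promoter sequences of assembly GRCm38.p6 used here, in a window from 250 bases before to 50 bases after the start. Aurkb, Ccna2, Cdc25c, Foxm1, Incenp, Kif20a, Pbk, Spc24, Stmn1 and Tpx2 had no entry. The promoters of Ccnb2 and Bub1b, the largest rises of their roles under cisplatin, and of Cdc20, Cdk1 and Top2a, chosen after their values were seen because they were among the largest rises of all, are printed as the 200 bases before the start, 5′ to 3′ on the strand of the gene. Capitals mark the CHR, written TTTGAA or TTTAAA or the reverse complement TTCAAA, and the CCAAT box, written CCAAT or ATTGG. A short stretch after the start is added for Ccnb2, where it holds a further CHR, and for Bub1b, where it holds the only CHR of the window. TTTAAA reads the same on both strands.
Ccnb2, chr9:70421555-70421754, minus strand: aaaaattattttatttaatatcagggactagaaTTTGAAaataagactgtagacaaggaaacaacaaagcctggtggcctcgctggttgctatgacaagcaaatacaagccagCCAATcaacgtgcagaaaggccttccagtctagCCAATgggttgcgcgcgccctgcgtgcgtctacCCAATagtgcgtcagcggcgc
Ccnb2 after the start, chr9:70421537-70421554, minus strand: ggtaTTTGAAtcgcggac
Bub1b, chr2:118598011-118598210, plus strand: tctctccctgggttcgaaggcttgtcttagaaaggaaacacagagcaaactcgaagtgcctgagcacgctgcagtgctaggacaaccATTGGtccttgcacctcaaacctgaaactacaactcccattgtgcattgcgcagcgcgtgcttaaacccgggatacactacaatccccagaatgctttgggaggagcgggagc
Bub1b after the start, chr2:118598243-118598260, plus strand: acgttaaaTTTGAAactt
Cdc20, chr4:118437344-118437543, minus strand: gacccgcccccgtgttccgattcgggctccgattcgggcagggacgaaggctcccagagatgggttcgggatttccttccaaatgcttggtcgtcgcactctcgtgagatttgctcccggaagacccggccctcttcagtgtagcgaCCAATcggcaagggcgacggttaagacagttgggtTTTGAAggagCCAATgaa
Cdk1, chr10:69352913-69353112, minus strand: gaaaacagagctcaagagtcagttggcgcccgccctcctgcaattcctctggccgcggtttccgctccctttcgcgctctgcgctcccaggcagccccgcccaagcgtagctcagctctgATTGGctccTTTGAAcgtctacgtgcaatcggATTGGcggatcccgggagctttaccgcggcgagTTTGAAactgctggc
Top2a, chr11:99024190-99024389, minus strand: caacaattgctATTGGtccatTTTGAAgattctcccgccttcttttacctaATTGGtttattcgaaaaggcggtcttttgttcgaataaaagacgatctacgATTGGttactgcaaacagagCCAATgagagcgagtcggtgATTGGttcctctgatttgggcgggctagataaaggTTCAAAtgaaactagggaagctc

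A CHR in either form was present in 25 of 31 mitotic promoters (80.6%), against 27.8% of all 27025 promoters of the same length. The CCAAT box was present in 24 of 31 (77.4%), against 37.9% of all promoters, and 22 of 31 had both. Within 100 bases before to 50 bases after the start, a window chosen after the matches were seen, 24 of 31 (77.4%) held a CHR, against 12.9% of all promoters. The core of the E2F site, TTCCCGC or TTGGCGC on either strand, was present in 4 of 31 (12.9%), against 6.93% of all promoters and 12 of 23 promoters (52.2%) of a list of S phase genes. A CHR was found in 39 of 61 promoters (63.9%) of a list of other G2/M genes, in 4 of 8 (50%) of the subunits of DREAM and MuvB, in 7 of 23 (30.4%) of those S phase promoters, in 2 of 13 (15.4%) of the subunits of the anaphase-promoting complex and in 0 of 6 of the genes that hold back mitotic entry. No CHR of these letters lay in the windows of Bub1, Mad2l1, Melk, Nek2, Nuf2 and Nusap1. A match is a run of letters and not a measured binding site.

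**Figure D1:**
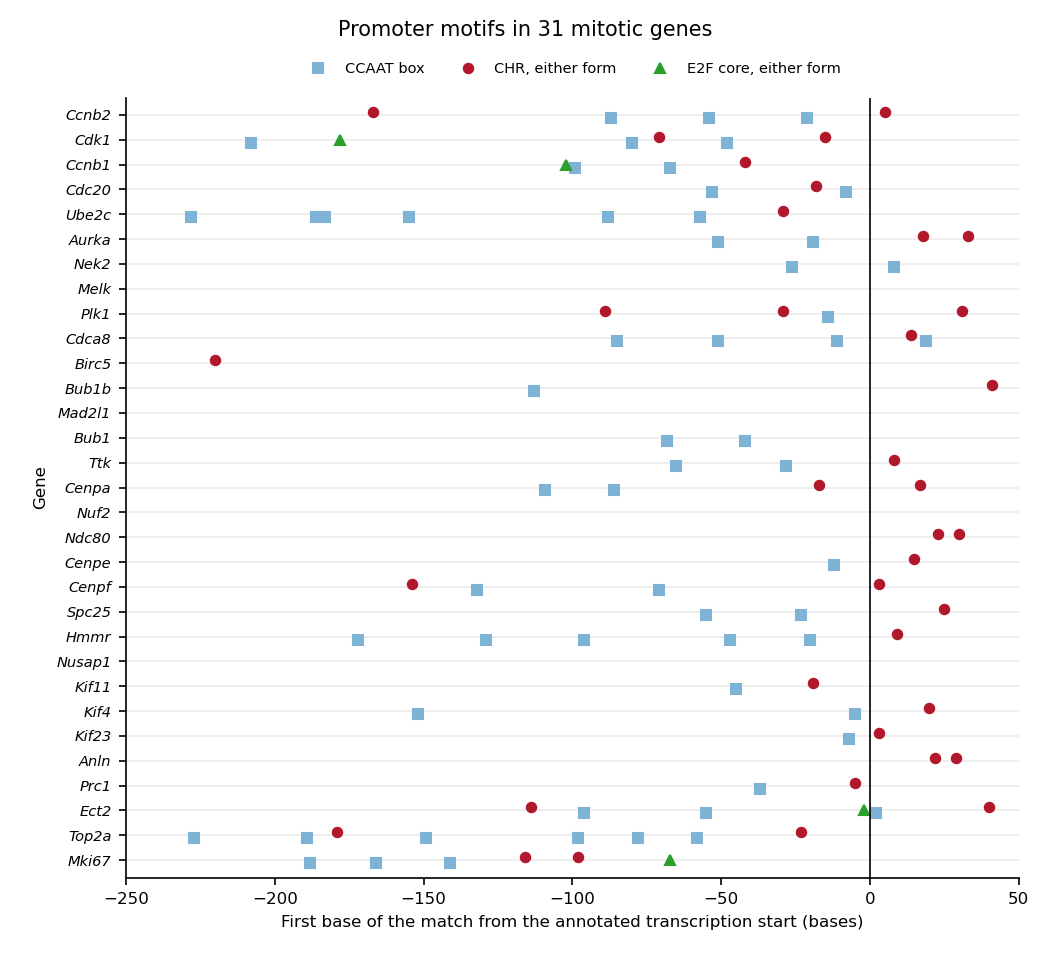
Position of each motif match in the promoters of 31 mitotic genes, with the distance of its first base from the annotated start in bases on the x axis, 1 gene per row on the y axis, and circles for the CHR, squares for CCAAT and triangles for the E2F core. CHR matches lie within 50 bases of the start in 23 of the 31 genes, with CCAAT boxes mostly further upstream.

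The deposited table gives TPM, the transcripts of a gene per 1000000 in a library, which is scaled by gene length and by the total of each library, so levels can be compared between genes. Reads per library, worked out from the spacing of the TPM values, ran from 36.9 to 82.4 M (median 41.8), where 1 M is 1000000 reads. Fan1 itself had a TPM of 1.98 to 3.80 in wild-type saline, 1.17 to 2.28 in FAN1KO saline, 2.33 to 3.57 in wild-type cisplatin and 1.55 to 3.51 in FAN1KO cisplatin kidneys, so the genotypes overlapped and whole-kidney Fan1 RNA did not check the labels. RNA of 4 Y-linked genes was present in 1 of the 3 libraries in each group, namely replicate 1 of FAN1KO saline and of wild-type cisplatin and replicate 3 of wild-type saline and of FAN1KO cisplatin. The tissue was kidney by its markers, with a summed TPM of 10 proximal tubule markers from 2709 to 10198. In whole kidneys, fewer cells of a type and less RNA per cell cannot be told apart, and the same holds for more cells and more RNA per cell.

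Most mitotic genes were low in 3 of the 4 groups and high in FAN1KO kidneys after cisplatin. Outside FAN1KO cisplatin, 35 of the 41 stayed under 5 TPM and 15 stayed under 1 TPM in every one of the 9 libraries. In FAN1KO cisplatin kidneys 36 of 41 had a mean of at least 1 TPM, against 17 of 41 in wild-type saline. For 37 of the 41 genes, all 3 FAN1KO cisplatin libraries were above all 9 others, and the exceptions were Nusap1, Ect2, Ube2c and Spc25. The share of all genes above all 9 others was not computed. Above wild-type cisplatin alone it was 31.7% of all genes, and above FAN1KO saline alone 43.4%. The 41 genes averaged 1.04, 1.26 and 0.89 log2(TPM + 1) in wild-type saline, 1.29, 1.14 and 1.07 in FAN1KO saline, 0.91, 1.42 and 1.50 in wild-type cisplatin and 2.43, 2.14 and 2.10 in FAN1KO cisplatin libraries. The 3 FAN1KO cisplatin libraries stood above the other 9 in this average, and wild-type cisplatin replicate 1 lay among the saline libraries, below its 2 group mates.

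**Figure D2:**
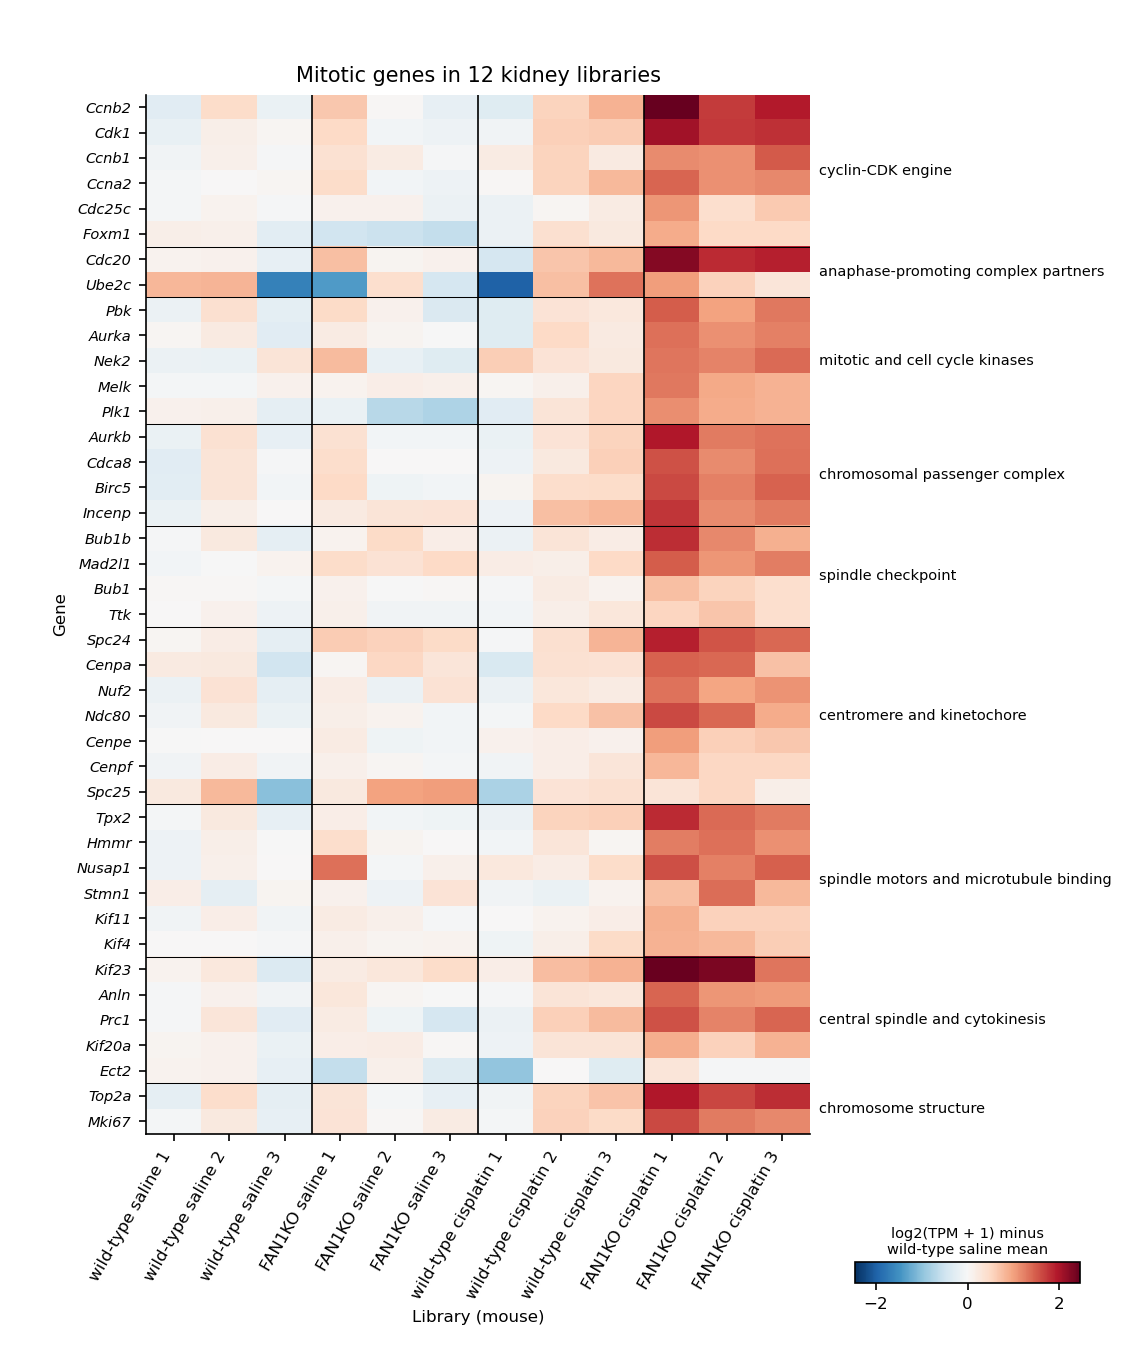
Heat map of 41 mitotic genes, 1 per row and grouped by role, in 12 kidney libraries, 1 per column, with colour giving log2(TPM + 1) minus the mean of the 3 wild-type saline libraries. The 3 FAN1KO cisplatin columns are red in nearly every row, while Ube2c and Spc25 vary between libraries of 1 group by as much as between groups.

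Genotypes under cisplatin were compared first. Between FAN1KO and wild-type kidneys after cisplatin, 37 of 41 mitotic genes were higher and 0 were lower in FAN1KO at an adjusted p under 0.05 from limma on log2(TPM + 1), where 16.5% of all 19497 genes tested were called higher and 3.29% lower. The median log2 fold change of the 41 was 1.00, against 0.18 for all genes tested. The ratio of group mean TPM ran from 1.07 to 5.60 with a median of 3.20, and it was at least 2 for 35 of the 41. All 3 FAN1KO values lay above all 3 wild-type values for 38 of the 41, where 31.7% of all genes did so, and 0 had all 3 below, where 7.45% did. The 4 genes that did not pass were Foxm1, Ect2, Ube2c and Spc25.

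The calls depended on the libraries and on the scaling. Wild-type cisplatin replicate 1 was the library of its group with the lowest value for 36 of the 41 genes. Without it 24 of 41 passed, where 8.23% of all genes were called higher. FAN1KO cisplatin replicate 1 was the highest of its group for 35 of the 41. Without it 25 passed, where 1399 of all 19497 genes were called higher. Its removal lost the calls on Ccna2, Cenpa, Cenpf, Incenp, Kif20a, Ndc80, Nek2, Nusap1, Pbk, Plk1, Prc1 and Ttk. Removal of wild-type cisplatin replicate 1 lost these and Cdc25c. Median-ratio scaling divides every library by the median, over genes, of its ratio to a geometric mean library, and it moved the median of all genes from 0.18 to 0.00. Under it 27 of 41 passed and the median of the 41 was 0.76. All genes were then called higher and lower 1545 and 1080 times, in place of 3214 and 642. With only the 6 cisplatin libraries fitted, 25 of 41 passed, where 1515 of all genes were called higher. Of the 41, 0 were lower under any of these settings.

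The engine of mitotic entry is cyclin B with Cdk1. Of 6 genes of this role, 5 rose, FAN1KO set against wild-type after cisplatin. Ccnb2, which encodes cyclin B2 and had the largest log2 fold change of the 41, had a TPM of 0.751, 1.87 and 0.881 in wild-type saline, 2.33, 1.17 and 0.830 in FAN1KO saline, 0.710, 2.09 and 2.83 in wild-type cisplatin and 10.5, 5.90 and 7.14 in FAN1KO cisplatin. All FAN1KO cisplatin libraries were above the other 9, which overlapped one another (log2 fold change 1.67 ± 0.35 SE, adjusted p = 0.00969). Cdk1, the kinase itself, had a TPM of 0.339, 0.666 and 0.565 in wild-type saline, 1.14, 0.439 and 0.392 in FAN1KO saline, 0.434, 1.28 and 1.32 in wild-type cisplatin and 5.26, 4.05 and 4.26 in FAN1KO cisplatin. Again FAN1KO cisplatin stood alone, and wild-type cisplatin replicates 2 and 3 were above the saline libraries while replicate 1 was within them (log2 fold change 1.48 ± 0.23 SE, adjusted p = 0.00222). Ccna2, the cyclin of S phase and G2, had a TPM of 0.834, 0.918 and 0.959 in wild-type saline, 1.58, 0.819 and 0.740 in FAN1KO saline, 0.936, 1.77 and 2.28 in wild-type cisplatin and 4.08, 3.14 and 3.29 in FAN1KO cisplatin. Its groups under cisplatin did not overlap, though wild-type cisplatin replicates 2 and 3 also lay above all 6 saline libraries (log2 fold change 0.79 ± 0.22 SE, adjusted p = 0.0293). This call was lost in 8 of the settings tried, among them the removal of replicate 1 or replicate 2 of either cisplatin group (adjusted p = 0.0533 to 0.109). Reads of Ccna2 can be shared with Exosc9, which overlaps its exons on the opposite strand. Ccnb1 and Cdc25c, the phosphatase that activates Cdk1, rose from a mean of 0.474 ± 0.200 to 1.83 ± 0.426 and from 0.163 ± 0.133 to 0.884 ± 0.449 TPM (SD, n = 3).

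Foxm1, a transcription factor of many G2/M genes, did not pass. It had a TPM of 1.23, 1.19 and 0.695 in wild-type saline, 0.455, 0.403 and 0.357 in FAN1KO saline, 0.826, 1.64 and 1.40 in wild-type cisplatin and 2.78, 1.85 and 1.84 in FAN1KO cisplatin. All 3 FAN1KO values were above wild-type under cisplatin but below wild-type under saline (log2 fold change 0.47 ± 0.18 SE, adjusted p = 0.0900, under cisplatin and log2 fold change -0.53 ± 0.18 SE, adjusted p = 0.402, under saline).

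Cdc20 and Ube2c work with the anaphase-promoting complex. Cdc20, its mitotic activator, had a TPM of 1.65, 1.68 and 1.16 in wild-type saline, 3.15, 1.62 and 1.68 in FAN1KO saline, 0.862, 2.97 and 3.33 in wild-type cisplatin and 10.8, 7.79 and 8.32 in FAN1KO cisplatin. The FAN1KO cisplatin libraries were all above the others, with wild-type cisplatin replicate 1 the lowest of the 12 (log2 fold change 1.64 ± 0.32 SE, adjusted p = 0.00680). Its exons overlap those of the more abundant Elovl1 on the opposite strand. Ube2c, the ubiquitin-conjugating enzyme of the complex, had a TPM of 18.5, 18.8 and 2.55 in wild-type saline, 3.27, 13.8 and 7.39 in FAN1KO saline, 1.81, 17.5 and 26.9 in wild-type cisplatin and 21.5, 15.3 and 12.7 in FAN1KO cisplatin. The groups overlapped, and the 3 lowest libraries of the 12 were wild-type saline 3, FAN1KO saline 1 and wild-type cisplatin 1, all of which held Y-linked RNA (log2 fold change 0.60 ± 0.89 SE, adjusted p = 0.674). The log2 fold change turned to -0.41 without wild-type cisplatin replicate 1.

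All 5 mitotic and cell cycle kinases of the list rose. Pbk, a kinase of dividing cells, had a TPM of 0.741, 1.52 and 0.619 in wild-type saline, 1.66, 1.07 and 0.510 in FAN1KO saline, 0.575, 1.43 and 1.31 in wild-type cisplatin and 4.33, 2.79 and 3.67 in FAN1KO cisplatin. The 3 FAN1KO cisplatin values were the highest of the 12 (log2 fold change 1.14 ± 0.26 SE, adjusted p = 0.0146), and the call was lost without replicate 1 of either cisplatin group (adjusted p = 0.0574 and 0.0624). Nek2, a centrosome kinase, had a TPM of 1.37, 1.34 and 2.27 in wild-type saline, 3.47, 1.31 and 1.15 in FAN1KO saline, 3.01, 2.32 and 2.08 in wild-type cisplatin and 5.49, 5.07 and 5.89 in FAN1KO cisplatin. FAN1KO cisplatin was above all others, with FAN1KO saline replicate 1 and wild-type cisplatin replicate 1 next (log2 fold change 0.91 ± 0.27 SE, adjusted p = 0.0412). Its call was lost in 11 of the settings tried, among them the removal of any 1 of the 6 cisplatin libraries (adjusted p = 0.0651 to 0.114). Plk1, which acts from mitotic entry to cytokinesis, rose from 2.11 ± 0.832 to 4.21 ± 0.555 TPM (adjusted p = 0.0435). Its call was lost without any 1 cisplatin library except wild-type cisplatin replicate 3, under median-ratio scaling and with a pseudocount of 0.1, among other settings. Aurka, which works at the spindle poles, rose from 1.64 ± 0.688 to 4.54 ± 0.450 and Melk from 0.306 ± 0.234 to 1.25 ± 0.372 TPM (SD, n = 3).

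The chromosomal passenger complex joins the kinase Aurkb to Incenp, Birc5 and Cdca8, and all 4 genes rose. Aurkb had a TPM of 0.367, 0.973 and 0.337 in wild-type saline, 0.997, 0.471 and 0.470 in FAN1KO saline, 0.378, 0.926 and 1.25 in wild-type cisplatin and 4.96, 2.69 and 2.86 in FAN1KO cisplatin. FAN1KO cisplatin replicate 1 was well above its 2 group mates, which in turn were above the other 9 libraries (log2 fold change 1.28 ± 0.25 SE, adjusted p = 0.00734). Incenp, the scaffold, had a TPM of 2.23, 2.96 and 2.64 in wild-type saline, 3.20, 3.50 and 3.54 in FAN1KO saline, 2.29, 4.96 and 5.28 in wild-type cisplatin and 11.1, 7.06 and 7.64 in FAN1KO cisplatin. Here the groups were ordered but close, wild-type cisplatin replicates 2 and 3 lying between saline and FAN1KO cisplatin (log2 fold change 0.93 ± 0.26 SE, adjusted p = 0.0318). That call was lost in 7 of the settings tried, among them the removal of wild-type cisplatin replicate 1 or of FAN1KO cisplatin replicate 1 or 2 (adjusted p = 0.0529 to 0.128). Birc5, or survivin, rose from 0.784 ± 0.259 to 2.85 ± 0.513 and Cdca8, or borealin, from 2.22 ± 0.781 to 5.92 ± 0.962 TPM.

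The spindle checkpoint holds anaphase until every kinetochore is attached, and its 4 genes all rose. Bub1b, which encodes the checkpoint protein BubR1, had a TPM of 0.264, 0.507 and 0.103 in wild-type saline, 0.355, 0.776 and 0.425 in FAN1KO saline, 0.161, 0.593 and 0.443 in wild-type cisplatin and 3.45, 1.89 and 1.35 in FAN1KO cisplatin. Its ratio of means, 5.60, was the highest of the 41, and FAN1KO cisplatin replicate 1 carried the highest value (log2 fold change 1.17 ± 0.23 SE, adjusted p = 0.00680). Mad2l1, the Cdc20 inhibitor Mad2, had a TPM of 3.32, 3.51 and 3.82 in wild-type saline, 5.18, 4.78 and 5.36 in FAN1KO saline, 4.17, 3.99 and 5.38 in wild-type cisplatin and 11.7, 8.65 and 9.89 in FAN1KO cisplatin. All FAN1KO libraries were above all wild-type libraries under saline as well as under cisplatin (log2 fold change 1.01 ± 0.16 SE, adjusted p = 0.00307, under cisplatin and log2 fold change 0.43 ± 0.16 SE, adjusted p = 0.524, under saline). Ttk, the kinase Mps1, had a TPM of 0.140, 0.231 and 0.0512 in wild-type saline, 0.242, 0.0671 and 0.0770 in FAN1KO saline, 0.0854, 0.262 and 0.384 in wild-type cisplatin and 0.629, 0.815 and 0.521 in FAN1KO cisplatin. It stayed under 1 TPM in all 12 libraries, and its log2 fold change was the smallest among the genes called (log2 fold change 0.42 ± 0.11 SE, adjusted p = 0.0242), with a ratio of means of 2.69, since the pseudocount of 1 compresses the change of genes this low. The call was lost in 7 of the settings tried, among them the removal of wild-type cisplatin replicate 1 or of FAN1KO cisplatin replicate 1 or 2 (adjusted p = 0.0682 to 0.0904). Bub1 was lower still, with 0.139 ± 0.0878 and 0.592 ± 0.186 TPM in wild-type and FAN1KO cisplatin kidneys.

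At the centromere and kinetochore, 6 of 7 genes rose. Spc24, a subunit of the microtubule-binding Ndc80 complex, had a TPM of 3.27, 3.67 and 2.56 in wild-type saline, 5.38, 5.15 and 4.71 in FAN1KO saline, 3.05, 4.47 and 6.38 in wild-type cisplatin and 14.4, 11.0 and 9.90 in FAN1KO cisplatin. The groups under cisplatin were apart, and FAN1KO saline libraries were all above wild-type saline (log2 fold change 1.21 ± 0.23 SE, adjusted p = 0.00658, under cisplatin and log2 fold change 0.55 ± 0.23 SE, adjusted p = 0.597, under saline). Spc25, its partner subunit in the same complex, had a TPM of 30.5, 45.7 and 12.2 in wild-type saline, 30.7, 51.9 and 53.3 in FAN1KO saline, 14.7, 32.7 and 34.0 in wild-type cisplatin and 32.5, 37.0 and 28.5 in FAN1KO cisplatin. It had the highest level of the 41 genes in 8 of 12 libraries, Stmn1 having it in the other 4, and its lowest values were in wild-type saline 3 and wild-type cisplatin 1. The groups overlapped in every comparison (log2 fold change 0.34 ± 0.45 SE, adjusted p = 0.632), and without wild-type cisplatin replicate 1 the log2 fold change was -0.038. The other 2 subunits of the complex rose, Ndc80 from 0.599 ± 0.404 to 2.02 ± 0.709 and Nuf2 from 0.418 ± 0.217 to 1.87 ± 0.361 TPM. So did Cenpa, the histone variant of centromeres, from 2.03 ± 0.799 to 5.38 ± 1.65, the motor Cenpe from 0.348 ± 0.0307 to 1.11 ± 0.364 and Cenpf from 0.306 ± 0.169 to 0.827 ± 0.236.

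All 6 genes of spindle motors and microtubule binding rose. Tpx2, which activates Aurka on the spindle, had a TPM of 0.408, 0.717 and 0.252 in wild-type saline, 0.620, 0.384 and 0.339 in FAN1KO saline, 0.318, 1.11 and 1.16 in wild-type cisplatin and 4.14, 2.76 and 2.48 in FAN1KO cisplatin. FAN1KO cisplatin libraries were the 3 highest and wild-type cisplatin 2 and 3 the next 2 (log2 fold change 1.16 ± 0.22 SE, adjusted p = 0.00607). Stmn1, a microtubule-destabilising protein, had a TPM of 19.9, 15.1 and 18.7 in wild-type saline, 19.1, 16.2 and 22.7 in FAN1KO saline, 16.7, 15.8 and 18.8 in wild-type cisplatin and 30.4, 47.2 and 31.7 in FAN1KO cisplatin. It was well expressed in every group, and FAN1KO cisplatin replicate 2, not replicate 1, was the highest (log2 fold change 1.02 ± 0.18 SE, adjusted p = 0.00487, ratio of means 2.13). The call on Stmn1 was lost under median-ratio scaling (adjusted p = 0.0687). The bipolar motor Kif11 rose from 0.384 ± 0.0692 to 1.09 ± 0.270, the chromosome motor Kif4 from 0.351 ± 0.269 to 0.987 ± 0.172, Hmmr from 0.382 ± 0.187 to 2.06 ± 0.245 and Nusap1 from 1.13 ± 0.204 to 3.65 ± 0.556 TPM. Nusap1 was also at 3.41 TPM in FAN1KO saline replicate 1, within the range of FAN1KO cisplatin.

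At the central spindle and in cytokinesis, 4 of 5 genes rose. Kif23, a motor of the central spindle, had a TPM of 0.958, 1.22 and 0.460 in wild-type saline, 1.12, 1.26 and 1.54 in FAN1KO saline, 1.08, 2.13 and 2.33 in wild-type cisplatin and 8.86, 8.09 and 3.58 in FAN1KO cisplatin. FAN1KO cisplatin replicate 3 was the lowest of its group and still above the other 9 libraries (log2 fold change 1.41 ± 0.31 SE, adjusted p = 0.0108), and the call was lost with only the 6 cisplatin libraries fitted (adjusted p = 0.0568). Ect2, the exchange factor that switches on RhoA for cytokinesis, had a TPM of 2.64, 2.71 and 2.00 in wild-type saline, 1.31, 2.75 and 1.78 in FAN1KO saline, 0.769, 2.48 and 1.79 in wild-type cisplatin and 3.24, 2.38 and 2.38 in FAN1KO cisplatin. The groups overlapped, with FAN1KO cisplatin 2 and 3 below wild-type saline 1 and 2 and wild-type cisplatin 1 the lowest of all (log2 fold change 0.50 ± 0.26 SE, adjusted p = 0.211). Prc1, Anln and Kif20a rose from 1.74 ± 0.838 to 4.28 ± 0.620, 0.354 ± 0.176 to 1.71 ± 0.417 and 1.54 ± 0.429 to 2.82 ± 0.458 TPM.

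Of the chromosome structure genes, Top2a, the topoisomerase that untangles replicated DNA, had a TPM of 0.509, 1.35 and 0.505 in wild-type saline, 1.18, 0.682 and 0.529 in FAN1KO saline, 0.652, 1.55 and 1.82 in wild-type cisplatin and 5.80, 4.42 and 5.09 in FAN1KO cisplatin. Its 3 FAN1KO cisplatin values were close together and far above the rest (log2 fold change 1.42 ± 0.25 SE, adjusted p = 0.00447). Mki67, the marker Ki-67 that coats mitotic chromosomes, had a TPM of 0.428, 0.735 and 0.289 in wild-type saline, 0.860, 0.494 and 0.691 in FAN1KO saline, 0.423, 1.16 and 1.04 in wild-type cisplatin and 3.52, 2.56 and 2.33 in FAN1KO cisplatin. The pattern was that of Top2a at a lower level (log2 fold change 1.03 ± 0.19 SE, adjusted p = 0.00561).

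**Figure D3:**
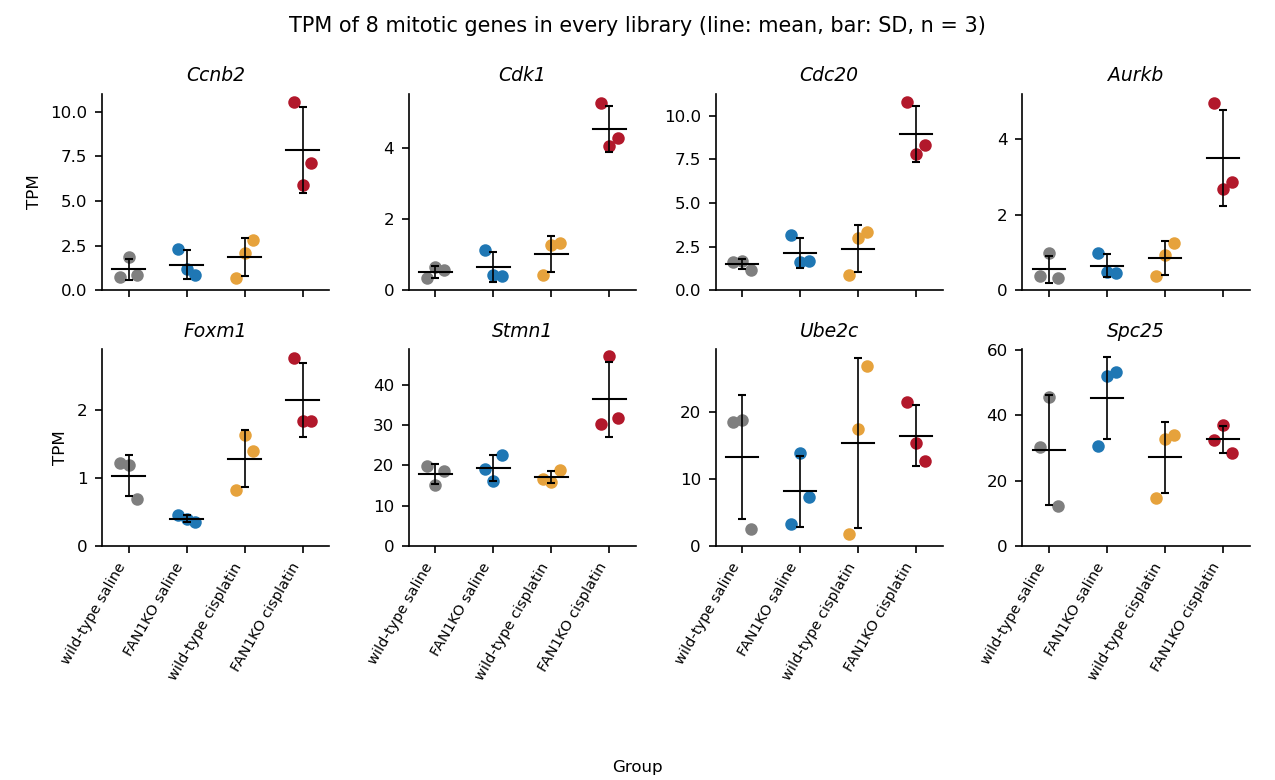
TPM on the y axis of 8 mitotic genes in each of the 4 groups on the x axis, with 1 point per mouse, a line at the mean and an error bar of 1 SD (n = 3). Ccnb2, Cdk1, Cdc20, Aurkb and Stmn1 have FAN1KO cisplatin points above all others, Foxm1 has its lowest points in FAN1KO saline, and Ube2c and Spc25 overlap between groups.

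Under saline the 2 genotypes were compared next. Of the 41 genes 0 were called by limma, where 0.195% of all genes were called higher and 0.236% lower, and 4 of the 41 (Plk1, Mad2l1, Spc24 and Foxm1) had an unadjusted p under 0.05, as did 7.7% of all genes. By voom on recovered reads the count was also 0. The median log2 fold change was 0.10, against -0.03 for all genes. Mad2l1, Incenp, Kif4 and Spc24 had all FAN1KO values above wild-type, where 4.52% of all genes did, and Foxm1 had all of them below, where 8% did. The smallest p that an exact permutation test of 3 against 3 allows is 0.1, so single genes cannot pass 0.05 by it in any of these comparisons.

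**Figure D4:**
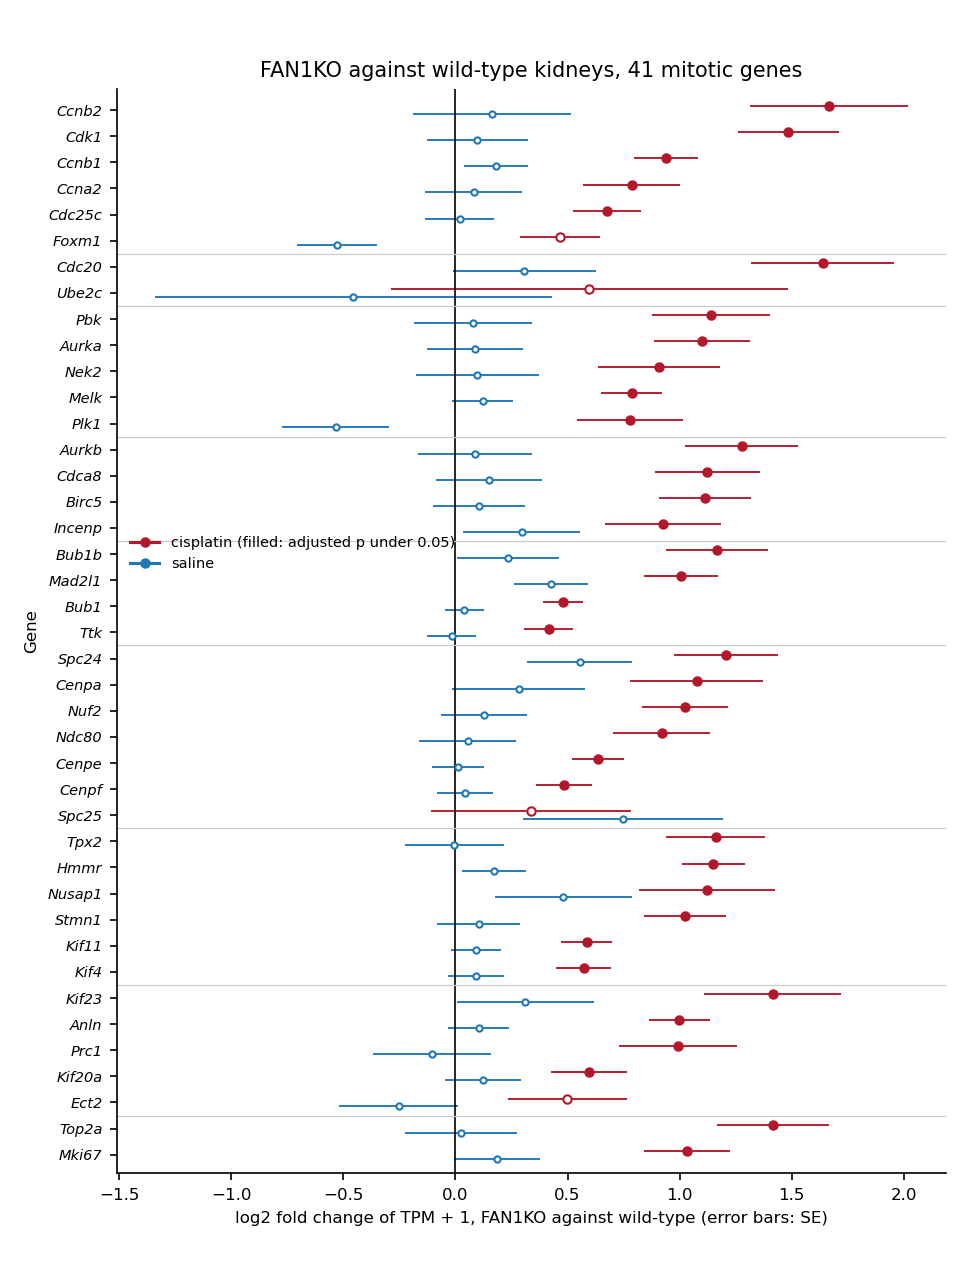
Log2 fold change of TPM + 1 in FAN1KO against wild-type kidneys on the x axis for 41 mitotic genes on the y axis, with error bars of 1 SE, red under cisplatin and filled where the adjusted p was under 0.05, and blue under saline. The 37 filled red points lie between 0.42 and 1.67, while the blue points lie between -0.53 and 0.75 and none is filled.

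Cisplatin against saline was then compared within each genotype. In FAN1KO kidneys 38 of 41 genes were higher after cisplatin and 0 were lower, where 29.7% of all genes were called higher and 3.63% lower, and the median log2 fold change was 1.08 against 0.28 for all genes. The median ratio of means was 4.30 and the highest 8.36, for Ndc80. The values did not overlap for 37 of 41, where 43.4% of all genes had all 3 cisplatin values above and 6.17% all 3 below. Ect2, Ube2c and Spc25 did not pass (adjusted p = 0.353, 0.376 and 0.492), while Foxm1 did (log2 fold change 1.15 ± 0.18 SE, adjusted p = 0.00116). With each of the 6 libraries left out in turn, 35 to 37 of the 41 passed, where 3438 to 6212 of all 19497 genes were called higher. This comparison and that of the genotypes under cisplatin share the FAN1KO cisplatin libraries.

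In wild-type kidneys none of the 41 passed after cisplatin, where 0.0462% of all genes were called higher and 0% lower. Only Ccnb1 had an unadjusted p under 0.05, as did 3% of all genes, and voom on recovered reads also called 0. The median log2 fold change was 0.19, against 0.06 for all genes, and 38 of 41 were above 0. Ccnb1, Mad2l1, Cenpe and Nusap1 had cisplatin values above all saline values, where 5.18% of all genes did, and 1.38% had all of them below. The libraries were uneven. Wild-type cisplatin replicate 1 held the lowest value of its group for 36 of the 41 genes, and without it the median of the 41 was 0.35, against 0.14 for all genes, and 13 of the 41 had an unadjusted p under 0.05, as did 9.06% of all genes, still with 0 of the 41 called.

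Whether cisplatin acted differently by genotype was tested as an interaction. The difference between the cisplatin effects was above 0 for 40 of 41 genes, with a median of 0.87 on the log2 scale against 0.22 for all genes, and 32 of 41 had an unadjusted p under 0.05, as did 22.7% of all genes. It passed after adjustment for 4 of the 41, where 4.21% of all genes were called higher and 0.713% lower. These were Cdk1 (log2 fold change 1.39 ± 0.32 SE, adjusted p = 0.0382), Anln, an actin-binding scaffold of the cleavage furrow (log2 fold change 0.89 ± 0.19 SE, adjusted p = 0.0306), Hmmr, which binds spindle microtubules (log2 fold change 0.98 ± 0.20 SE, adjusted p = 0.0260), and Foxm1 (log2 fold change 0.99 ± 0.25 SE, adjusted p = 0.0498). Anln had a TPM of 0.161, 0.273 and 0.118 in wild-type saline, 0.436, 0.224 and 0.170 in FAN1KO saline, 0.153, 0.476 and 0.433 in wild-type cisplatin and 2.19, 1.50 and 1.43 in FAN1KO cisplatin. Hmmr had a TPM of 0.184, 0.422 and 0.281 in wild-type saline, 0.744, 0.353 and 0.307 in FAN1KO saline, 0.227, 0.590 and 0.330 in wild-type cisplatin and 2.06, 2.30 and 1.81 in FAN1KO cisplatin. In both, FAN1KO cisplatin was above the other 9 libraries, which overlapped. For Foxm1 the difference held the low FAN1KO saline values as well as the high FAN1KO cisplatin values. The count was not stable. It was 0 with a pseudocount of 0.1 and 0 by voom on recovered reads, where 536 and 462 of all 19497 genes were called higher. It was 0 without any 1 of 7 libraries (wild-type saline 1 or 2, FAN1KO saline 2 or 3, wild-type cisplatin 1, FAN1KO cisplatin 1 or 2), where 258 to 465 of all genes were. It was 2 without wild-type cisplatin 2 and 10 without FAN1KO cisplatin 3, where 487 and 1286 were. With only the 8 libraries lacking Y-linked RNA it was 15, where 9.58% of all genes were called higher. With a Y-linked covariate it was 28, where 21.5% were.

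Genes beyond the 41 were read from lists chosen with earlier results of these data known, and each list is described by its counts, not tested. Of 72 other G2/M genes tested, 48 rose and 0 fell between the genotypes after cisplatin, where 16.5% of all genes were called higher and 3.29% lower. The median log2 fold change of the 72 was 0.61, against 0.18 for all genes. The largest rises were Pttg1, Psrc1 and Gtse1. Pttg1, the anaphase inhibitor securin, had a TPM of 4.53, 3.60 and 2.46 in wild-type saline, 17.6, 24.0 and 45.8 in FAN1KO saline, 2.93, 4.09 and 4.57 in wild-type cisplatin and 7.95, 35.2 and 35.5 in FAN1KO cisplatin. FAN1KO saline libraries were already above every wild-type library, and it differed between genotypes under cisplatin (log2 fold change 2.24 ± 0.52 SE, adjusted p = 0.0142) while FAN1KO kidneys gave log2 fold change -0.29 ± 0.52 SE, adjusted p = 0.694, for cisplatin against saline. Psrc1, a microtubule-binding protein, had a TPM of 0.441, 0.883 and 0.349 in wild-type saline, 0.386, 0.236 and 1.06 in FAN1KO saline, 3.37, 7.10 and 16.2 in wild-type cisplatin and 43.6, 49.2 and 26.0 in FAN1KO cisplatin. Here wild-type cisplatin libraries lay between saline and FAN1KO cisplatin, as did those of Gtse1, a regulator of p53 in G2 (log2 fold change 2.21 ± 0.45 SE, adjusted p = 0.00790, for Psrc1 and log2 fold change 1.68 ± 0.28 SE, adjusted p = 0.00358, for Gtse1). The call on Pttg1 was lost without wild-type cisplatin replicate 1 (adjusted p = 0.0521) or FAN1KO cisplatin replicate 2 (0.0579).

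Of 29 S phase genes, 20 rose and 0 fell, with a median of 0.83. The largest rises were in parts of the replicative helicase. Mcm6 had a TPM of 0.754, 1.56 and 0.784 in wild-type saline, 6.40, 6.77 and 8.05 in FAN1KO saline, 0.612, 1.83 and 2.05 in wild-type cisplatin and 17.3, 13.8 and 18.7 in FAN1KO cisplatin. FAN1KO was above wild-type under saline as well (log2 fold change 2.86 ± 0.27 SE, adjusted p = 0.000226, under cisplatin and log2 fold change 2.01 ± 0.27 SE, adjusted p = 0.00894, under saline), the only S phase gene called under saline. Gins2 had a TPM of 1.87, 2.04 and 1.40 in wild-type saline, 2.47, 2.62 and 2.27 in FAN1KO saline, 1.11, 2.53 and 3.87 in wild-type cisplatin and 19.3, 12.7 and 15.0 in FAN1KO cisplatin, with FAN1KO cisplatin alone at the top (log2 fold change 2.31 ± 0.28 SE, adjusted p = 0.000784). Against a background of 16.5% of all genes called higher, the core subunits of both complexes were read as well. Among 14 subunits of the anaphase-promoting complex 4 rose (Anapc2, Anapc7, Anapc15 and Anapc16), with a median of 0.29, and among 11 subunits of DREAM and MuvB only Lin37 rose (log2 fold change 0.57 ± 0.11 SE, adjusted p = 0.00720), with a median of 0.24. Anapc2 (log2 fold change 0.61 ± 0.12 SE, adjusted p = 0.00709) and Anapc15 (log2 fold change 0.59 ± 0.17 SE, adjusted p = 0.0339) were the largest of the first list, and the call on Anapc15 was lost without replicate 1 or replicate 2 of either cisplatin group (adjusted p = 0.0906 to 0.123). Under median-ratio scaling the medians became 0.03 and -0.07, with 1 higher and 0 lower call among the 14 and 0 higher and 2 lower among the 11, so the direction of DREAM and MuvB subunits depended on the scaling and Lin37 was no longer called (adjusted p = 0.199). Under the same scaling the calls of S phase genes fell from 20 to 13 of 29 (median 0.56) and those of the other G2/M genes from 48 to 36 of 72 (median 0.42). Over all 19497 genes this scaling gave 1545 higher and 1080 lower calls, in place of 3214 and 642.

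Genes that hold back mitotic entry rose beside the mitotic genes. Of 8 such brakes, 7 were higher in FAN1KO after cisplatin, where 16.5% of all genes were called higher. The median of the 8 was 1.10, against 0.18 for all genes. Cdkn1a, the p53 target p21 that inhibits cyclin-dependent kinases, had a TPM of 6.88, 9.98 and 8.13 in wild-type saline, 5.68, 6.92 and 8.53 in FAN1KO saline, 56.8, 99.2 and 169 in wild-type cisplatin and 442, 529 and 224 in FAN1KO cisplatin. It was the only brake that also rose in wild-type kidneys after cisplatin, with all groups under cisplatin apart from saline and from each other (log2 fold change 1.92 ± 0.39 SE, adjusted p = 0.00817 between genotypes under cisplatin, log2 fold change 3.43 ± 0.39 SE, adjusted p = 0.0315 for cisplatin in wild-type and log2 fold change 5.56 ± 0.39 SE, adjusted p = 3.19e-05 in FAN1KO). Sfn, which keeps Cdk1 with cyclin B out of the nucleus, had a TPM of 1.49, 1.84 and 0.780 in wild-type saline, 3.55, 6.05 and 11.8 in FAN1KO saline, 0.935, 2.95 and 2.88 in wild-type cisplatin and 16.7, 38.1 and 8.70 in FAN1KO cisplatin. FAN1KO libraries were above wild-type under both treatments. The difference was called under cisplatin (log2 fold change 2.61 ± 0.53 SE, adjusted p = 0.00800) but not under saline. For cisplatin against saline in FAN1KO kidneys Sfn was not called, and FAN1KO saline replicate 3 lay above FAN1KO cisplatin replicate 3. Gadd45a (0.99 ± 0.23), Rprm (1.71 ± 0.42), the inhibitory Cdk1 kinase Pkmyt1 (1.20 ± 0.23), the late activator of the anaphase-promoting complex Fzr1 (0.58 ± 0.12) and the checkpoint kinase Chek1 (0.67 ± 0.14) rose under cisplatin (log2 fold change ± SE, adjusted p = 0.0149, 0.0197, 0.00610, 0.00836 and 0.00969). Gadd45a was no longer called without FAN1KO cisplatin replicate 1 or 2 (adjusted p = 0.0646 and 0.0551), nor Rprm without either of them or without wild-type cisplatin replicate 1 (0.0557 to 0.0850). Fzr1 was no longer called under median-ratio scaling (adjusted p = 0.109), nor Cdkn1a and Chek1 with only the 6 cisplatin libraries (0.0514 and 0.0583). Wee1, the other inhibitory kinase of Cdk1, did not pass (log2 fold change 0.50 ± 0.27 SE, adjusted p = 0.219).

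**Figure D5:**
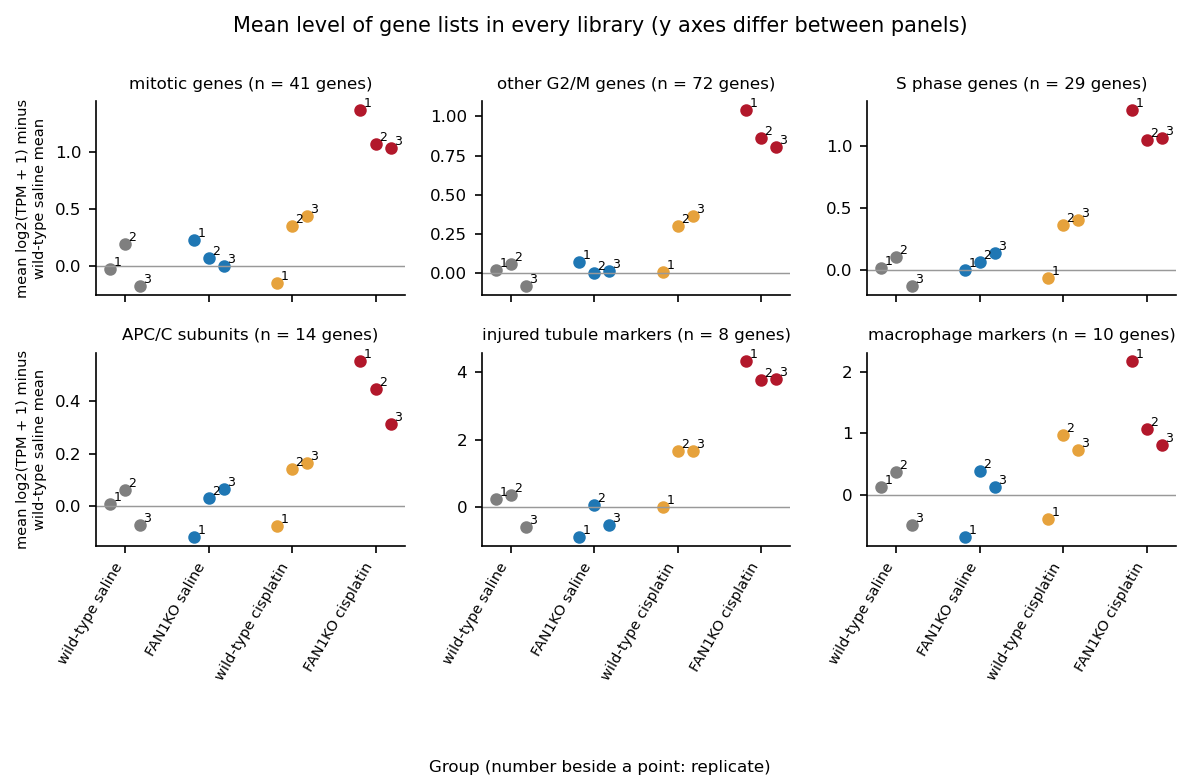
Mean log2(TPM + 1) of 6 gene lists minus the wild-type saline mean on the y axis, in each of the 4 groups on the x axis, with 1 point per mouse and its replicate number. Mitotic, other G2/M and S phase genes, subunits of the anaphase-promoting complex (APC/C) and injured tubule markers have their 3 highest points in FAN1KO cisplatin. Wild-type cisplatin replicate 1 lies at the level of saline in all 6 panels, and macrophage markers overlap between the cisplatin groups at replicates 2 and 3.

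Markers of kidney cell states and of other cells were read in the same comparison, where 16.5% of all genes were called higher and 3.29% lower. All 8 injured tubule markers rose between the genotypes after cisplatin, with a median log2 fold change of 2.58, and their summed TPM was 8836 to 15082 in FAN1KO cisplatin against 698 to 2711 in wild-type cisplatin. Of 10 proximal tubule markers 4 fell (Lrp2, Cubn, Slc34a1 and Slc22a8) and 0 rose, with a summed TPM of 2709 to 5210 against 6007 to 9359. The mean log2(TPM + 1) of these 10 markers overlapped between the groups, since FAN1KO cisplatin replicate 3 (8.08) was above wild-type cisplatin replicates 2 (7.92) and 3 (8.03). Of 10 macrophage markers 1 rose (Cx3cr1), with a summed TPM of 158 to 468 against 58.7 to 169. T and B cell markers summed to 6.46 to 22.3 TPM against 3.43 to 10.1, with Cd8a called higher among 9. Of 4 neutrophil markers tested Csf3r rose, with sums of 7.77 to 11.4 against 1.64 to 6.01 TPM. Under median-ratio scaling 6 of the 8 injured tubule markers were called higher and 0 of the T and B cell and neutrophil markers, while the counts of proximal tubule and macrophage markers stayed at 4 lower and 1 higher. Over all 19497 genes there were 1545 higher and 1080 lower calls under that scaling.

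The 7 markers of other nephron cells, 7 of fibroblasts and 6 of endothelium had no calls in this comparison, though all 6 endothelial markers were below 0 (median -1.01). The 5 erythroid markers described here summed to 6.13 to 22.4 TPM in FAN1KO cisplatin, against 651 to 1578 in wild-type cisplatin and 115 to 1474 in the saline groups, with 2 called higher (Klf1 and Epb42) and 2 lower (Alas2 and Hba-a1). No erythroid, immune or tubule list was at 0 in full in any library, and the part of these cells in the mitotic RNA was not tested.

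Whether the promoter letters went with the size of the change was read as a description. Of the 25 genes with a CHR in the window, 22 rose under cisplatin, with a median log2 fold change of 1.00, and of the 6 without one all 6 rose, with a median of 0.96. Ect2, Ube2c and Spc25, which did not pass, each hold a CHR and at least 1 CCAAT box. Of the 10 genes with no promoter entry 9 rose, Foxm1 being the exception.

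The lowest genes had few reads, and the part of read sampling in their spread was not tested. The recovered reads of a mitotic gene in a library fell to 1, for Cdc25c, and 32 of the 41 genes had at least 100 reads in every FAN1KO cisplatin library. Exons of Ccna2, Cdc20, Cdca8, Kif20a, Kif4, Nusap1, Prc1 and Ube2c overlap a gene on the opposite strand and those of Foxm1 a gene on the same strand, and since the counting behind these TPM is not given in the sources used here, their reads may be shared with the neighbour.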

How the data were processed

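RNA from whole kidneys of 12 mice was sequenced. The authors deposited 1 table of TPM, computed per gene and library with no pooling of replicates, and nothing else was used here. The submitters' processing notes name the build mm10 and limma, and the aligner, the counting tool and the annotation are not given in the sources used here. Gene numbers were named through RefSeq tables of assembly GRCm38.p6, which matched 25275 of 27179 (1904 stayed without a name). Columns left unmapped numbered 0.

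Genes with a TPM above 0 in at least 6 of 12 libraries (19497) were tested on log2(TPM + 1) with limma 3.58.1 in R 4.3.3, as 4 group means in 1 fit with a mean-variance trend, and p-values were adjusted by Benjamini-Hochberg over all of them at a threshold of 0.05. Fold changes on this scale understate the change of low genes. The fit was tried on data simulated for the comparison of genotypes under cisplatin with 19470 genes. It called higher 94 of 100 genes raised 4-fold, 30 of 100 raised 2-fold and 1 of 19270 left unchanged. Lower calls were not counted. The simulation gave all genes 1 spread beyond read sampling, with no shift of all genes and no uneven libraries. These counts are therefore not the power or the rate of false calls in the present data. Each replicate is a different mouse, so the tests set group differences against variation between mice, estimated over the 4 groups together and moderated across genes. Read numbers were worked out from the spacing of low TPM values, with whole reads for all 232991 of 232991 values above 0, within 0.0002 of a read. The reads of 19 of 500 genes with values moved at random could also be solved. The recovered reads served for depth and for voom as an alternative. Other alternatives were the pseudocount, filters, median-ratio scaling, fewer libraries, a replicate block, a Y-linked covariate and leaving out each library. Python 3.11.15, numpy 2.4.6, pandas 2.3.3, scipy 1.17.1 and matplotlib 3.10.9 were used for the remaining steps.

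The 41 members, the gene lists and the promoter motifs were chosen with earlier results of these data known. Given in every library were, in each of 9 roles, the member with the largest absolute log2 fold change between genotypes under cisplatin and that with the highest mean TPM (or the next), and the 3 members with the lowest fold change. Also named were the largest calls of the other lists and every brake on mitotic entry. Cdk1, Anln and Hmmr were added after their values were seen. Promoter sequences were read from RefSeq. The marker Ly6g fell under the detection filter and Hbb-bt was not found by name, so neither was tested. An erythroid marker is not reported here.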

Additional observations from a re-analysis of the deposited data

Results flagged for a closer look

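The genotype by cisplatin term of limma, which tests the difference in response itself, was called for 4 of the 41 mitotic genes. Of all genes 4.21% were called higher and 0.713% lower. On the log2(TPM + 1) scale the change in FAN1KO kidneys exceeded that in wild-type kidneys by 1.39 ± 0.32 for Cdk1 (SE, adjusted p = 0.0382), 0.89 ± 0.19 for Anln (0.0306), 0.99 ± 0.25 for Foxm1 (0.0498) and 0.98 ± 0.20 for Hmmr (0.0260). For Cdk1, Anln and Hmmr the 3 FAN1KO cisplatin values lay above all 9 others, and the same held for Foxm1, whose FAN1KO saline mean of 0.405 ± 0.0489 TPM was below the 1.04 ± 0.299 of wild-type saline (SD, n = 3). All 4 adjusted p-values lie near the threshold. Top2a (1.39 ± 0.35 SE, adjusted p = 0.0505) and Plk1 (1.31 ± 0.34 SE, adjusted p = 0.0521) lay just over it with changes of similar size. The count of 4 moved with the libraries and the scaling.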

How the results depend on the processing

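The median change of the mitotic genes between genotypes under cisplatin stayed above 0 in every setting tried, while the number called moved. Under cisplatin FAN1KO kidneys had 24 to 36 of the 41 called higher with 1 cisplatin library left out, and 29 with a pseudocount of 0.1. Of the 33 genes left by a minimum of 1 TPM in 3 libraries, 29 were called. Genes such as Bub1b and Anln met that minimum through FAN1KO cisplatin alone, so this count is no independent check. The count was 35 with no filter, 39 with a Y-linked covariate, 37 with no mean-variance trend and 35 by voom. It was 33 with the 8 libraries lacking Y-linked RNA, an alternative chosen after seeing the data. Calls higher among all genes moved as well. From 3214 of 19497 they became 1399 to 3551 with 1 cisplatin library left out, 2757 with the pseudocount and 2986 by voom. They were 6679 with the covariate, 4527 with the 8 libraries, 3251 with no trend, 2931 of 14972 with the minimum and 3158 of 22557 with no filter. The median log2 fold change of 1.00 became 1.49 with a pseudocount of 0.1, 0.76 under median-ratio scaling and 1.67 by voom. Ube2c turned to -0.25 with those 8 libraries and to -0.41 without wild-type cisplatin replicate 1, where Spc25 was at -0.038, and over the left-out libraries they reached 1.25 and 0.54.

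For cisplatin in FAN1KO kidneys the same 3 settings gave medians of 1.81, 0.79 and 2.04 with 37, 32 and 37 called higher. Of all 19497 genes, 5632, 2568 and 5353 were called higher under them. With the 8 libraries Spc25 was called lower, as 1 of 41, where 1240 of all genes were. In wild-type kidneys the median was 0.46 with a pseudocount of 0.1 and 0.53 by voom, still with 0 called. Under saline the genotype median of 0.10 became 0.38 by voom and turned to -0.023 with the 8 libraries. The interaction called 0 with a pseudocount of 0.1, 1 under median-ratio scaling, 28 with the Y-linked covariate, 15 with the 8 libraries, 0 by voom and 0 to 10 with 1 library left out. Of all 19497 genes, 536, 385, 4183, 1867, 462 and 258 to 1286 were called higher under these settings, in the same order. The interaction median of 0.87 became 1.31, 0.59 and 1.36 with the pseudocount, the scaling and voom. The higher medians with a pseudocount of 0.1 follow from the smaller offset added to low values. The cause of the other shifts, those of voom included, was not tested.

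Same-numbered libraries had mean correlations of deviations of -0.24, -0.21, -0.14 and -0.19 over the 4 comparisons of a pair of groups. Single pairs ran from -0.60 to 0.48 between genotypes under saline and from -0.58 to 0.57 for cisplatin in wild-type kidneys. These few pairs cannot settle whether the replicate numbers paired the samples. With the replicate block 31 of 41 were called higher between genotypes under cisplatin, 38 for cisplatin in FAN1KO and 1 in the interaction. Of all 19497 genes, 2608, 5325 and 352 were called higher. With 3 mice a group, differences under saline or in wild-type kidneys may go undetected, and the power of these comparisons was not estimated.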
